A study of Mus musculus with 6 samples.

Results

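The sphingosine 1-phosphate (S1P) pathway was described here through 9 genes: the receptor genes S1pr1, S1pr2, S1pr3 and S1pr4, the kinase genes Sphk1 and Sphk2, the exporter gene Spns2, and Sgpl1 and Sgpp1, whose products degrade the lipid. They were chosen by symbol from a table of 56941 genes, all 9 were found, and all 9 were among the 18562 genes with enough counts to be tested. RNA was sequenced from cells isolated from mouse lungs with magnetic beads as primary endothelial cells. The EC-KO group (3 libraries) was labelled FUNDC1-KO, an endothelial knockout of the mitophagy receptor gene Fundc1, and the FL group (3 libraries) was labelled FUNDC1-FLOX, with a floxed copy of that gene. Cells of both groups were passed through dead-cell removal and kept in endothelial medium with serum. The Cre driver, the strain, the age and the sex of the mice, the time in culture and the number of animals behind a library are not stated in the sources used here, so p-values measure the spread between these libraries, which may be technical.

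S1P is a lipid mediator made inside cells by phosphorylation of sphingosine and carried out of endothelial cells by the transporter Spns2. Outside the cell it acts on G-protein-coupled receptors. In endothelium S1pr1 signals through inhibitory G proteins and Rac to tighten junctions, whereas S1pr2 and S1pr3 can also couple to other G proteins. Inside the cell the lipid is returned to sphingosine by phosphatases such as Sgpp1, or cleaved for good by the lyase Sgpl1.

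In the knockout libraries the kinase gene Sphk1 and the receptor gene S1pr3 rose most, the lyase gene Sgpl1 rose less, and the exporter gene Spns2 and the leukocyte receptor gene S1pr4 fell. Thus 3 of the 9 genes rose and 2 fell at an adjusted p under 0.05 (edgeR quasi-likelihood test, Benjamini-Hochberg adjustment over all tested genes), and 4 did not pass. Over all tested genes 27.1% were called, 13.5% in each direction, and the median log2 fold change was 0.03. The median over the 9 genes was -0.36. The EC-KO and FL libraries did not overlap in 8 of the 9 genes, against 45.4% of all tested genes. EC-KO was above FL in 3 of them (22.6% of all tested genes) and below in 5 (22.8%). Without 1 library the number of members called was 5 (EC-KO 2 left out), 4 (FL 1), 3 (EC-KO 3) or 2 (EC-KO 1, FL 2 or FL 3). Sphk1 was the member called in each of these comparisons.

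**Figure D1:**
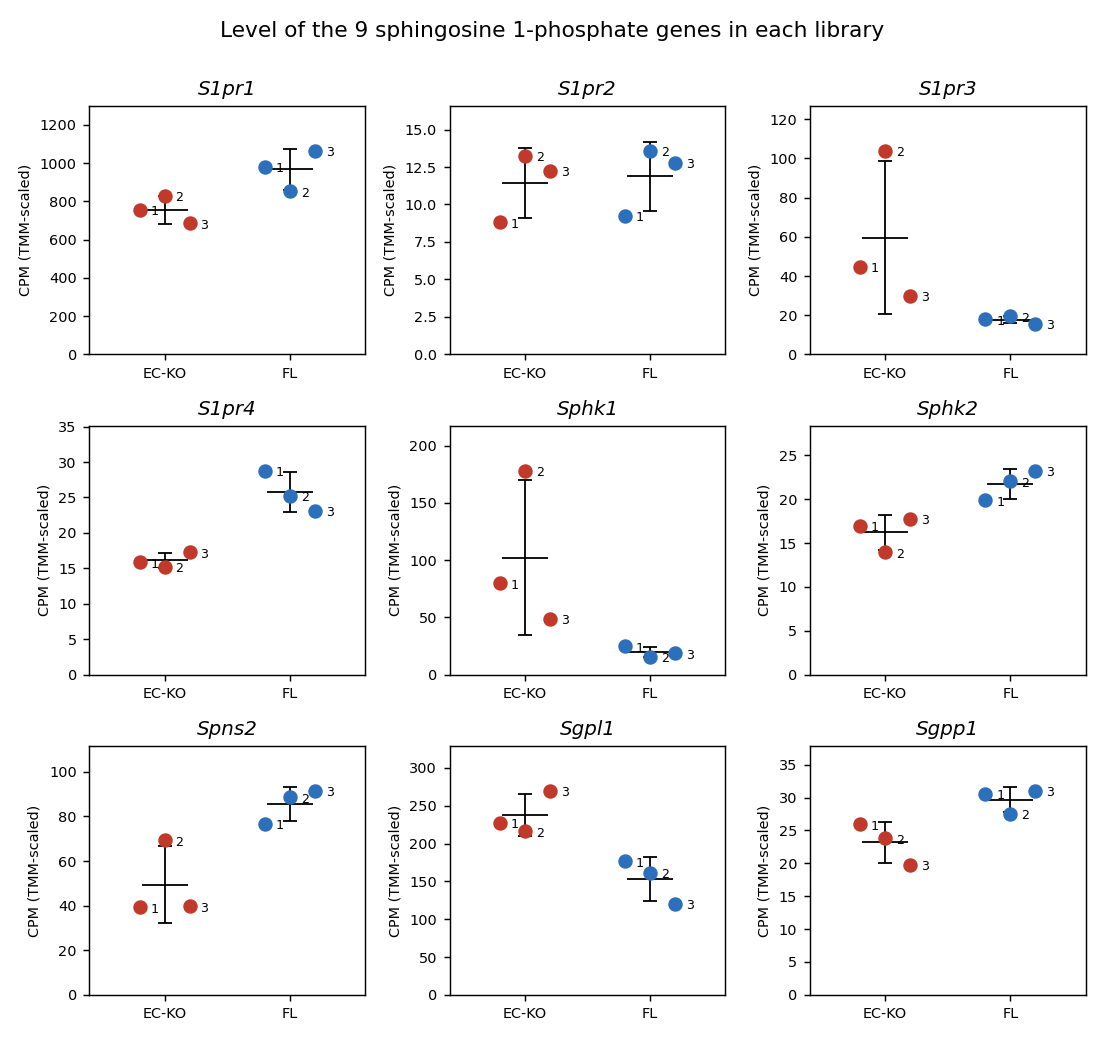
Level of each gene in every library, in CPM (counts scaled to a common library size by TMM; linear axis from 0). Points are libraries with their number, the bar is the mean and the whisker the SD of 3 libraries. EC-KO 2 stands above the other EC-KO libraries in S1pr3 (104.0 CPM) and Sphk1 (178 CPM), and S1pr2 is the gene in which the groups overlap.

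Libraries held 26.7 to 34.3 M gene counts. Fundc1 itself was at 12.8 to 18.2 CPM in the EC-KO libraries and at 25.1 to 32.0 CPM in the FL libraries (log2 fold change -0.96 ± 0.19 SE, adjusted p = 0.00796, edgeR). A gene count includes exons outside any deleted part. Markers of other lung cells were present in every library and differed between the groups, so each value describes a mixture in which fewer cells of a type and less RNA per cell cannot be told apart. Of 26 pan-endothelial markers 14 fell and 0 rose, with a summed level of 5057 to 10100.3 CPM in EC-KO and 12919.5 to 18205.1 CPM in FL libraries. The endothelial adhesion gene Pecam1 was present in every library, at 619 to 1233 CPM in EC-KO and 1416 to 2311 CPM in FL. Of 16 epithelial markers 15 rose and 0 fell (11674.5 to 17439.5 CPM in EC-KO, 1926 to 4518 CPM in FL), and of 12 fibroblast markers 8 rose and 0 fell (971 to 2511 CPM in EC-KO, 474 to 679 CPM in FL). Of 14 macrophage and monocyte markers 13 fell and 0 rose (2486 to 3529 CPM in EC-KO, 6006 to 9806 CPM in FL). Among markers of neutrophils and mast cells 5 of 9 fell and 0 rose (486 to 562 CPM in EC-KO, 1497 to 2881 CPM in FL). Of 7 lymphatic endothelial markers 5 fell and 0 rose (532 to 1058 CPM in EC-KO, 1893 to 2683 CPM in FL), and of 10 smooth muscle and pericyte markers 8 fell and 0 rose (296 to 437 CPM in EC-KO, 622 to 872 CPM in FL). Of 10 red cell and platelet markers 7 rose and 0 fell (131 to 270 CPM in EC-KO, 34.4 to 111 CPM in FL). Among 14 lymphocyte markers 2 rose and 2 fell (757 to 1557 CPM in EC-KO, 1182 to 1637 CPM in FL). No marker on any of these lists was at 0 in all libraries.

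**Figure D2:**
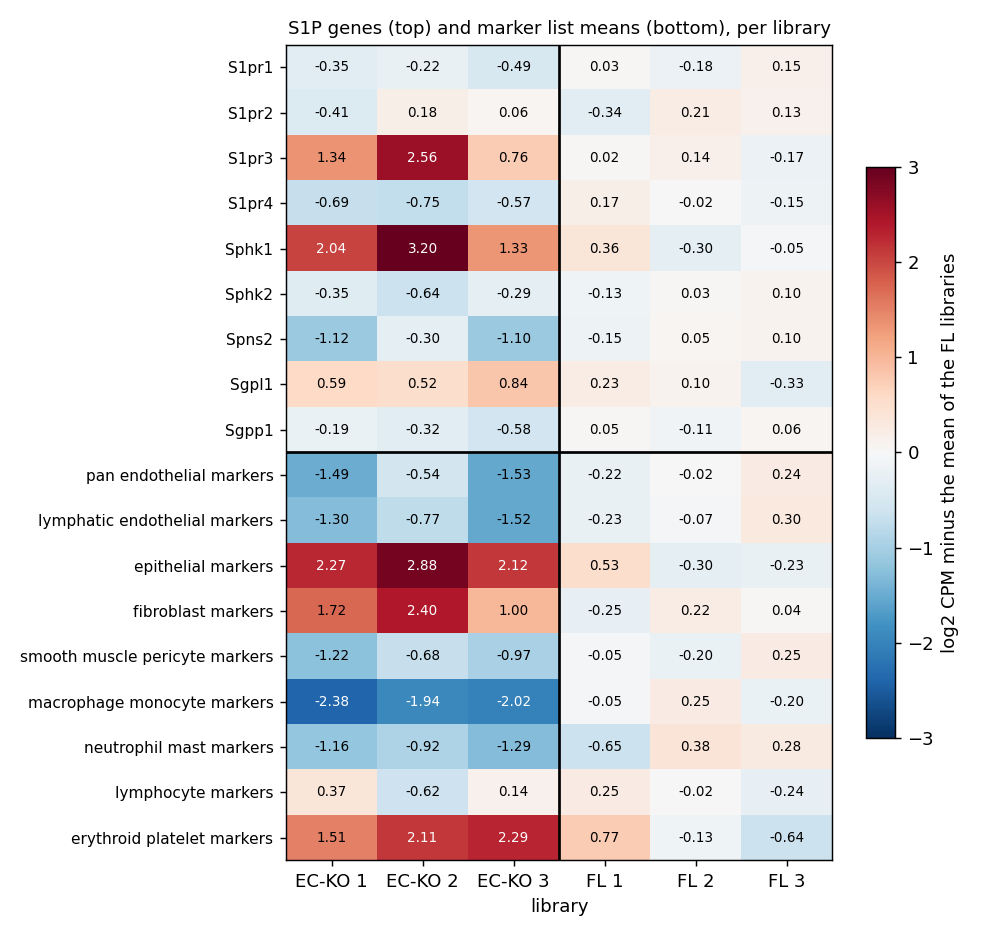
Level of the 9 genes (top) and mean of each marker list (bottom) in every library, as log2 CPM minus the mean of the FL libraries. Sphk1 and S1pr3 are highest in EC-KO 2 (3.20 and 2.56), which among the EC-KO libraries also has the highest mean of every marker list but those of lymphocytes and of red cells and platelets.

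Sequences before the annotated starts are shown for Sphk1 and S1pr3, which rose most and had the same order of EC-KO libraries, and for Spns2, which fell. Each is 250 bases before a start in RefSeq on GRCm38.p6, 5′ to 3′ on the strand of the gene. In the table of RefSeq promoter windows used here 8 of the 9 genes were matched, all but S1pr1. Capitals mark matches, on either strand, to the letters of short motifs, which were searched without regard to overlap. These were the site of AP-1 factors, TGANTCA, and the box of Sp1 factors, GGGCGG. The core bound by KLF factors was searched as CACCC, that of the aryl hydrocarbon receptor as GCGTG, and the TATA box as TATAAA.
Sphk1, chr11:116530850-116531099, plus strand: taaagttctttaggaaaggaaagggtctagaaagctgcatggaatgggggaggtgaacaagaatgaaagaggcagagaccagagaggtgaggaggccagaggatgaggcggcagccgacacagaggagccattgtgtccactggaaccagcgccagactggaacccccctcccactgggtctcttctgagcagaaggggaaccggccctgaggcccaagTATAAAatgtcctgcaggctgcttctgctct
S1pr3, chr13:51408368-51408617, plus strand: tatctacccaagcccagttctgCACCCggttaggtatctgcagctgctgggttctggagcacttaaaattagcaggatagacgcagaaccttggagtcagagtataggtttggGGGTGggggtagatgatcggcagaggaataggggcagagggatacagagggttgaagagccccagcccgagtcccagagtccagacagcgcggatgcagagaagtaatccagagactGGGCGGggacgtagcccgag
Spns2, chr11:72475028-72475277, minus strand: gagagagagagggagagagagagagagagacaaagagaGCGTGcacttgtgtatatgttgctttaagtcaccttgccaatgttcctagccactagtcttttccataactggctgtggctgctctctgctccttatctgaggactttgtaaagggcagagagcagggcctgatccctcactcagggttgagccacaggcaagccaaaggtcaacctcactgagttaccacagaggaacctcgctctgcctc
The most upstream of the 5 Sphk1 starts had TATAAA beginning 31 bases before the start, a motif in 12.4% of all 32851 promoter windows of that length. The next windows along Sphk1, at the second and the third start, overlap each other and both held TGANTCA, a motif in 6.75% of all windows. The windows at the 4 starts after the first also held CACCC, in 3 or 4 places each, and GCGTG, in 1 or 2 places each, and those at the last pair of starts overlap too. S1pr3 had GGGCGG 20 bases before its start (in 32.7% of windows) and CACCC in 2 places (in 52.0%), and Spns2 had GCGTG once (in 28.2%). These matches are letters in a window and describe no binding. The RefSeq starts were not compared with the ends of the counted genes, so a window, such as that of Spns2, may lie inside the gene.

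S1pr1 was by far the most abundant gene of the pathway per transcript length, and its fall did not pass the test. It was at 755, 828 and 685 CPM in EC-KO 1, 2 and 3 and at 982, 853 and 1066 CPM in FL 1, 2 and 3. Every EC-KO library lay below every FL library, but EC-KO 2 and FL 2 differed by little. The log2 fold change was -0.36 ± 0.17 (SE; 95% interval -0.75 to 0.04, adjusted p = 0.160, edgeR). Of the 16 alternatives, S1pr1 was called lower only in the one that left out FL 1 and EC-KO 2 (-0.45, adjusted p = 0.0491, edgeR). Those libraries were already known to lie nearest the other group in endothelial markers. Without them 7554 genes were called, against 5029 with all libraries, so this call is not separate support for a fall. Relative to the FL mean S1pr1 stood at -0.35, -0.22 and -0.49 on the log2 scale in EC-KO 1, 2 and 3. The pan-endothelial markers averaged -1.49, -0.54 and -1.53 there, a difference that was not tested. The gene (ENSMUSG00000045092) has 2 exons and lies on chromosome 3, 115504082 to 115508721, minus strand, as positioned by the count table; the genome build behind these and the following gene positions is unresolved.

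S1pr3, a receptor that can couple to several classes of G protein, rose. It was at 44.8, 104.0 and 29.9 CPM in EC-KO 1, 2 and 3 and at 17.9, 19.5 and 15.7 CPM in FL 1, 2 and 3. All 3 EC-KO libraries were above all FL libraries, and the spread among them (59.6 ± 39.2 CPM, SD, n = 3) was far wider than among the FL libraries (17.7 ± 1.91 CPM, SD, n = 3). The log2 fold change was 1.75 ± 0.40 (SE, adjusted p = 0.0135, edgeR), or 3.37-fold. Without EC-KO 2 it was 1.05 (adjusted p = 0.00390), and without FL 3 the call was lost (1.64, adjusted p = 0.0625), as it was with no filter on low counts (1.73, adjusted p = 0.0935). The EC-KO libraries had the same order in S1pr3 as in the summed markers of 4 lists. In EC-KO 1, 2 and 3 these were at 1513, 2511 and 971 CPM for fibroblasts, 11929, 17440 and 11675 CPM for epithelium, 613, 1058 and 532 CPM for lymphatic endothelium, and 530, 562 and 486 CPM for neutrophils and mast cells. Genes of the first pair of lists rose and genes of the other pair fell. In the last list EC-KO 2 was the highest in Kit, at 123, 210 and 144 CPM in EC-KO 1, 2 and 3. S100a9 (246, 208 and 178 CPM) and S100a8 (56.7, 45.3 and 38.2 CPM) were highest in EC-KO 1, and Csf3r (92.4, 81.8 and 113 CPM) in EC-KO 3. The other genes of that list were far lower, so its order is not shared by its neutrophil genes. Smooth muscle and pericyte markers, with 8 of 10 lower, had their highest EC-KO sum in EC-KO 2 as well but were higher in EC-KO 3 than in EC-KO 1. Pan-endothelial markers, with 14 of 26 lower, were at 5057, 10100.3 and 5138 CPM in EC-KO 1, 2 and 3. There EC-KO 1 and EC-KO 3 were little apart, as in the epithelial sums. The pan-endothelial mean relative to FL, on the log2 scale, was -1.49, -0.54 and -1.53, in the order of S1pr3. The part of any of these cells in the rise of S1pr3 was not tested. The gene (ENSMUSG00000067586) lies on chromosome 13, 51562675 to 51576833, plus strand, and shares 45 exon bases with Gm32834 on the other strand, which had 12 counts over all 6 libraries.

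S1pr4, a receptor of blood cells that is used mainly by leukocytes, fell. Its level was 15.9, 15.2 and 17.3 CPM in EC-KO 1, 2 and 3 and 28.8, 25.3 and 23.1 CPM in FL 1, 2 and 3, with no overlap and little spread inside either group. This gave a log2 fold change of -0.67 ± 0.17 (SE, adjusted p = 0.0176, edgeR). The call was lost without EC-KO 1 (adjusted p = 0.0611) and without FL 2 (0.0612). Macrophage and monocyte markers fell in the same libraries by more (median log2 fold change -2.13). Neutrophil and mast cell markers had a median of -1.90, with 5 of 9 lower, and lymphocyte markers had a median of 0.08. The part of leukocytes in the fall of S1pr4 was not tested. The single-exon gene (ENSMUSG00000044199) lies on chromosome 10, 81333581 to 81335966, minus strand.

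S1pr2, a receptor tied to the opening of junctions, was low in both groups and did not pass the test. It was at 8.81, 13.2 and 12.2 CPM in EC-KO 1, 2 and 3 and at 9.25, 13.6 and 12.8 CPM in FL 1, 2 and 3. The log2 fold change was -0.06 ± 0.23 (SE, adjusted p = 0.877, edgeR), its 95% interval ran from -0.58 to 0.47, and its sign was positive with upper-quartile scaling or with no scaling beyond library size.

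Per length, as CPM per kilobase of exon (RPKM), S1pr1 made up 93.3%, 89.7% and 93.6% of the summed level of the 4 receptor genes in EC-KO 1, 2 and 3 and 94.9%, 94.4% and 95.9% in FL 1, 2 and 3. The share of S1pr3 was 3.78%, 7.68% and 2.79% in EC-KO and 1.18%, 1.47% and 0.963% in FL libraries. The groups did not overlap in either share. The S1pr3 share averaged 4.75 ± 2.59% in EC-KO and 1.21 ± 0.255% in FL libraries (SD, n = 3 each), with p = 0.10 in a two-sided exact permutation test, the smallest that 3 against 3 libraries allow. The difference of 3.55 percentage points was 2.08 without EC-KO 2.

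**Figure D3:**
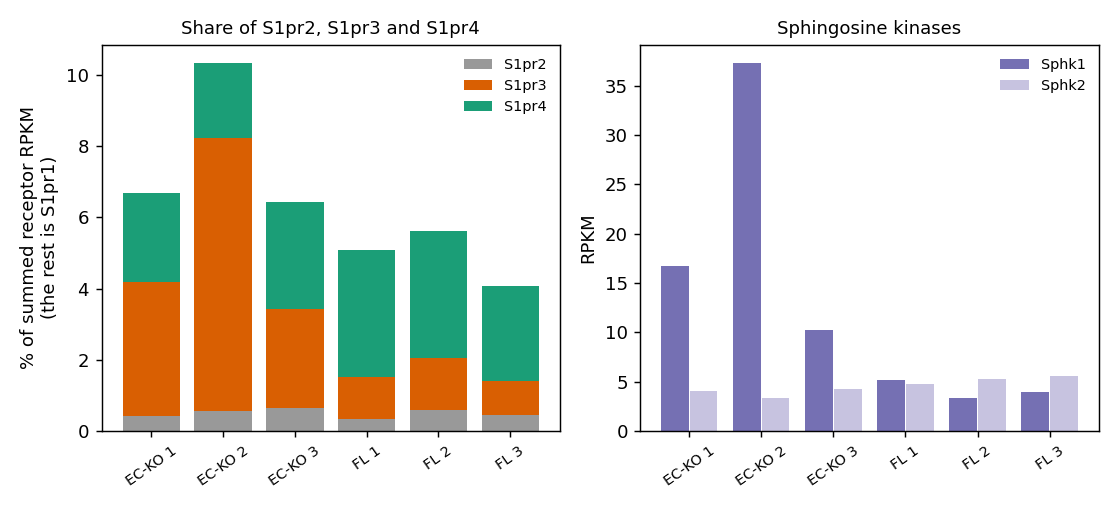
Left, share of S1pr2, S1pr3 and S1pr4 in the summed receptor RPKM of each library (the rest is S1pr1). Right, RPKM of the kinases Sphk1 and Sphk2 in each library. S1pr3 takes 7.68% in EC-KO 2 and at most 1.47% in FL libraries. Sphk1 exceeds Sphk2 in all EC-KO libraries and, by little, in FL 1 (ratio 1.09).

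Sphk1, the mostly cytosolic kinase that is induced by growth factors and cytokines in many cells, had the largest rise of the 9 genes. It was at 79.8, 178 and 48.7 CPM in EC-KO 1, 2 and 3 and at 24.9, 15.7 and 18.8 CPM in FL 1, 2 and 3. The lowest EC-KO library was above the highest FL library, and EC-KO 2 was again the highest. The log2 fold change was 2.37 ± 0.43 (SE, adjusted p = 0.00536, edgeR), or 5.17-fold. It was 1.67 without EC-KO 2 (adjusted p = 0.00185), and the rise was called whichever of the 6 libraries was left out. With no filter on low counts it was not called (2.35, adjusted p = 0.0631). The order of the EC-KO libraries was that of S1pr3, and so that of the same 4 marker sums and of the pan-endothelial mean. The part of any of those cells in the rise of Sphk1 was not tested. The gene (ENSMUSG00000061878) lies on chromosome 11, 116421751 to 116427501, plus strand, and shares 192 exon bases with Gm29292 on the other strand, which had 57 counts over the 6 libraries against 11808 for Sphk1.

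Sphk2, the kinase found also in the nucleus and in mitochondria, did not pass the test. It was at 17.0, 13.9 and 17.7 CPM in EC-KO 1, 2 and 3 and at 19.9, 22.1 and 23.2 CPM in FL 1, 2 and 3 (log2 fold change -0.42 ± 0.17 SE, 95% interval -0.81 to -0.03, adjusted p = 0.0989, edgeR). All EC-KO libraries were below all FL libraries. On the other strand its exons share 539 bases with Dbp, which had 884 counts over the 6 libraries, and 373 bases with the ribosomal protein gene Rpl18, which had 65513. Sphk2 itself had 3615 counts, so reads there cannot be assigned with certainty if strand was not used in counting. The ratio of Sphk1 to Sphk2 in RPKM was 4.10, 11.1 and 2.39 in EC-KO 1, 2 and 3 and 1.09, 0.621 and 0.703 in FL 1, 2 and 3 (two-sided exact permutation test, p = 0.10, the smallest possible). The difference of the mean ratios, 5.07, was 2.44 without EC-KO 2.

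Spns2, which exports S1P from endothelial cells, fell. It was at 39.2, 69.4 and 39.7 CPM in EC-KO 1, 2 and 3 and at 76.7, 88.6 and 91.4 CPM in FL 1, 2 and 3. The library EC-KO 2 came close to FL 1, while EC-KO 1 and EC-KO 3 were far lower. On the log2 scale it fell by 0.79 ± 0.24 (SE, adjusted p = 0.0360, edgeR). The log2 fold change was -1.15 without EC-KO 2 (adjusted p = 0.000635), and the call was lost without EC-KO 1 (adjusted p = 0.127), EC-KO 3 (0.107), FL 1 (0.0505), FL 2 (0.102) or FL 3 (0.105). Relative to the FL mean, Spns2 was at -1.12, -0.30 and -1.10 on the log2 scale in EC-KO 1, 2 and 3, and the pan-endothelial markers averaged -1.49, -0.54 and -1.53 in those libraries; their part in the fall was not tested. The gene (ENSMUSG00000040447) lies on chromosome 11, 72342464 to 72380730, minus strand, and shares 131 exon bases with Mybbp1a on the other strand, which had 20805 counts over the 6 libraries against 12778 for Spns2. As for Sphk2, reads there cannot be assigned with certainty if strand was not used in counting.

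Sgpl1, the lyase of the endoplasmic reticulum that cleaves S1P irreversibly, rose. It was at 228, 217 and 270 CPM in EC-KO 1, 2 and 3 and at 177, 162 and 121 CPM in FL 1, 2 and 3, without overlap. Its log2 fold change was 0.64 ± 0.19 (SE, adjusted p = 0.0364, edgeR), or 1.55-fold. The call was lost without EC-KO 1 (adjusted p = 0.0840), EC-KO 3 (0.123), FL 2 (0.0975) or FL 3 (0.166). Here EC-KO 3 was the highest library, unlike in Sphk1 and S1pr3. The gene (ENSMUSG00000020097) lies on chromosome 10, 60934421 to 60983482, minus strand.

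Sgpp1, the phosphatase that returns S1P to sphingosine, was at 25.96, 23.8 and 19.8 CPM in EC-KO 1, 2 and 3 and at 30.6, 27.5 and 31.0 CPM in FL 1, 2 and 3. All EC-KO libraries were below all FL libraries, and the log2 fold change of -0.36 ± 0.17 (SE, 95% interval -0.73 to 0.02, adjusted p = 0.142, edgeR) did not pass. In RPKM the ratio of Sgpp1 to Sgpl1 was 0.124, 0.120 and 0.0798 in EC-KO 1, 2 and 3 and 0.188, 0.185 and 0.280 in FL 1, 2 and 3 (two-sided exact permutation test, p = 0.10, the smallest possible). The groups did not overlap in this ratio. The summed RPKM of Sphk1 and Sphk2 over that of Sgpl1 and Sgpp1 was 0.4997, 1.03 and 0.305 in EC-KO 1, 2 and 3. In FL 1, 2 and 3 it was 0.292, 0.276 and 0.379, and there the groups overlapped (exact permutation test, two-sided, p = 0.20). Other phosphatases, described below, are not in this ratio.

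**Figure D4:**
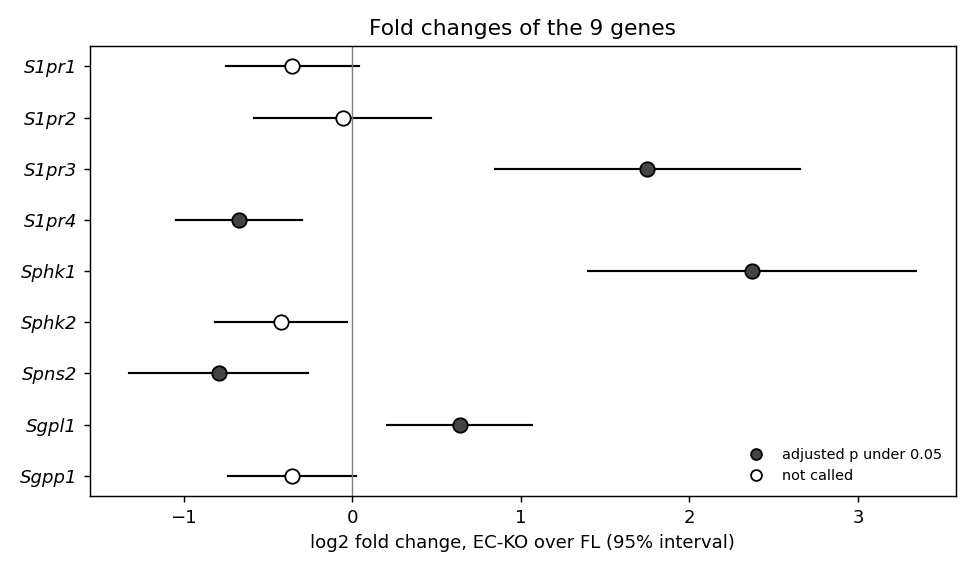
Log2 fold change of each gene, EC-KO over FL, with its 95% interval from the edgeR fit. Filled points passed an adjusted p of 0.05. Sphk1 (2.37) and S1pr3 (1.75) lie apart from the other genes, which are between -0.79 and 0.64.

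The order of the 9 genes per length differed between the groups below the first place. S1pr1 was the highest and S1pr2 the lowest in all 6 libraries. Sphk1 took the second or the third place in every EC-KO library (16.7, 37.3 and 10.2 RPKM in EC-KO 1, 2 and 3) and a place from the sixth to the eighth in the FL libraries (5.21, 3.30 and 3.93 RPKM in FL 1, 2 and 3). In FL libraries Spns2 (18.8, 21.7 and 22.4 RPKM) and Sgpl1 (28.8, 26.3 and 19.6 RPKM) took the places after S1pr1, and they changed places in FL 3. S1pr3, Sphk1, Sphk2 and Sgpp1 lay between 3.30 and 5.59 RPKM in the FL libraries, with an order that changed from library to library.

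Other genes that handle S1P or sphingosine were read from fixed lists in the same fit. These lists, here and in the next paragraphs, were written with earlier results of these data known. The counts of calls in them therefore describe the listed genes and do not test for an excess. Of 6 tested genes among the other receptors, phosphatases and carriers, 2 rose and 1 fell, against 13.5% of all tested genes in each direction. Sgpp2, the second intracellular S1P phosphatase, was at 7.94 ± 1.98 CPM in EC-KO and 3.01 ± 1.43 CPM in FL (SD, n = 3 each; log2 fold change 1.41, adjusted p = 0.0184, edgeR). Per length Plpp1 was the most abundant of the list over both groups together. In EC-KO 1, 2 and 3 it was below Plpp3 (30.7, 56.1 and 27.1 against 40.1, 67.2 and 33.3 RPKM). Plpp1 fell (-1.46, adjusted p = 0.0155, edgeR) and Plpp2 rose (1.19, adjusted p = 0.0110), both being phosphatases of lipid phosphates at the cell surface. Their relative Plpp3 was at 148 ± 56.6 CPM in EC-KO and 155 ± 12.8 CPM in FL (-0.07, adjusted p = 0.865), S1pr5 at -0.81 (adjusted p = 0.139) and the red cell and platelet exporter gene Mfsd2b at 1.02 (adjusted p = 0.0634). Red cell and platelet markers had a median log2 fold change of 1.80 in the same libraries, and their part in the value of Mfsd2b was not tested. Apom, the carrier of plasma S1P, had too few counts to be tested. Without FL 3 no gene of this list was called, and without EC-KO 2 there were 5.

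Genes that release sphingosine from ceramide and other lipids showed falls and no rise: 5 of 11 fell, against 13.5% of all tested genes, with a median log2 fold change of -0.41. Acer2, the Golgi ceramidase that supplies sphingosine, was at 183, 346 and 180 CPM in EC-KO 1, 2 and 3 and at 824, 1004 and 1254 CPM in FL 1, 2 and 3. The highest EC-KO library was thus far below the lowest FL library, and the log2 fold change was -2.12 ± 0.30 (SE, adjusted p = 0.00180, edgeR). It was called whichever of the 6 libraries was left out. Asah1, the lysosomal ceramidase, fell (-1.09, adjusted p = 0.0128), as did Psap (-1.33, adjusted p = 0.00240), which encodes the lysosomal saposins and was the most abundant gene of the list per length. Macrophages are rich in both lysosomal transcripts, and their markers had a median of -2.13 here; their part was not tested. The number of falls was 2 without EC-KO 1 and 3 without EC-KO 3, FL 2 or FL 3.

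In the list for ceramide synthesis 3 of 16 tested genes fell and 0 rose, 18.8% against 27.1% of all tested genes. These were Cers4, a ceramide synthase (-0.67, adjusted p = 0.0152, edgeR), Sptssa, a small subunit of serine palmitoyltransferase (-0.82, adjusted p = 0.0204), and the reductase gene Kdsr (-0.74, adjusted p = 0.0277). Degs1, the desaturase that makes ceramide and the most abundant gene of the list per length, was at -0.15 (adjusted p = 0.512). The count was 0 without EC-KO 1 or FL 3, 1 without EC-KO 3 or FL 2, and 6 without EC-KO 2.

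Among 20 genes that couple the receptors to the cell interior or regulate them, 7 fell and 1 rose, with a median log2 fold change of -0.47. Over all tested genes the share called was 13.5% in each direction. The arrestins Arrb1 (-1.61, adjusted p = 0.00291, edgeR) and Arrb2 (-1.10, adjusted p = 0.00147), which end receptor signalling and carry receptors inward, fell. Klf2, a flow-responsive transcription factor that in mouse lymphocytes drives S1pr1, was at 119, 119 and 81.0 CPM in EC-KO 1, 2 and 3 and at 219, 236 and 232 CPM in FL 1, 2 and 3 (-1.11, adjusted p = 0.00387). Gnai2, the most abundant of the list per length, fell too (-0.72, adjusted p = 0.0313). Gna13, a G-protein alpha subunit, was the gene that rose, at 577, 589 and 608 CPM in EC-KO 1, 2 and 3 and 410, 381 and 353 CPM in FL 1, 2 and 3 (0.63, adjusted p = 0.0178). Gna13 was not called without EC-KO 1 (adjusted p = 0.0527), EC-KO 3 (0.0624), FL 2 (0.0804) or FL 3 (0.105), nor Gnai2 without the same 4 libraries (0.113, 0.104, 0.0841 and 0.106). The list had 3 calls without EC-KO 1, 4 without EC-KO 3, FL 2 or FL 3, and 13 without EC-KO 2.

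**Figure D5:**
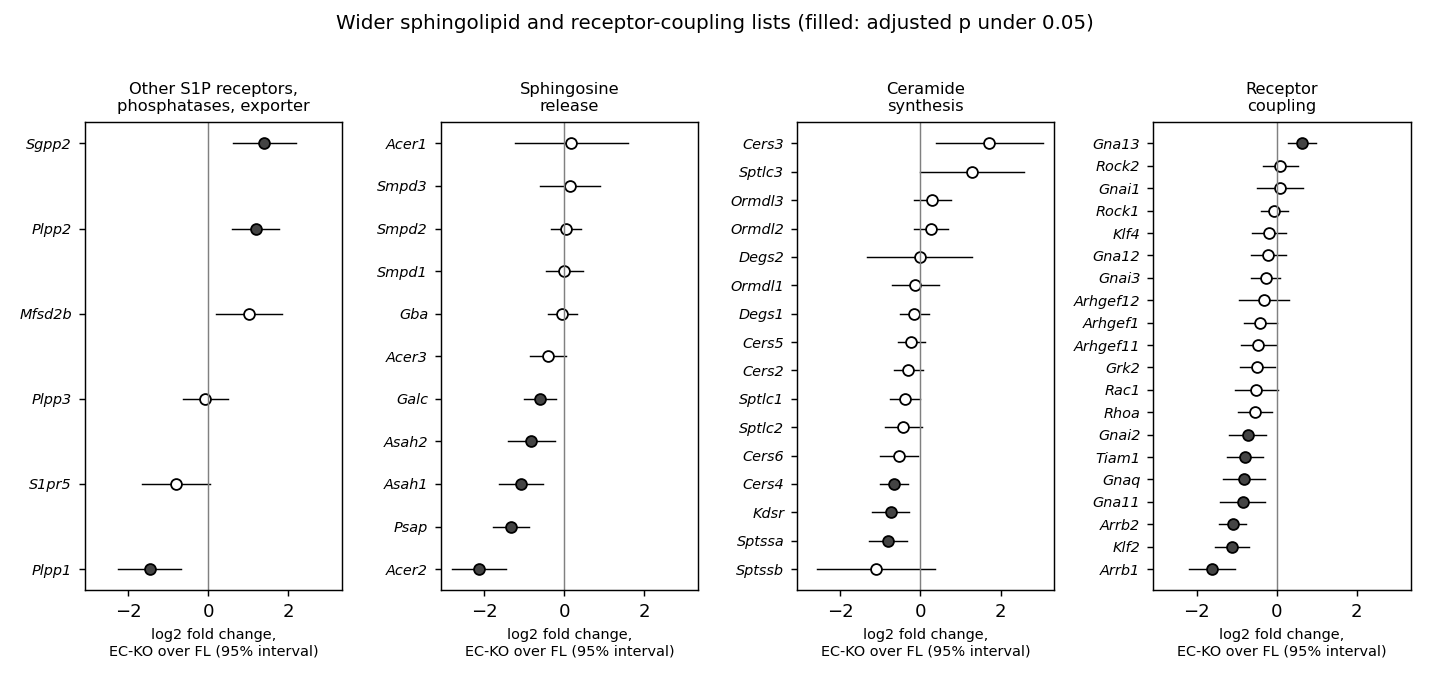
Log2 fold change, EC-KO over FL, of every tested gene in the 4 wider lists, with 95% intervals. Filled points passed an adjusted p of 0.05. Acer2 (-2.12) and Arrb1 (-1.61) are the lowest called genes, and Sgpp2 (1.41), Plpp2 (1.19) and Gna13 (0.63) are the called genes on the right of 0.

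For each called member the 3 genes with the nearest profile over the 6 libraries were found among 12618 genes, by the root-mean-square difference of log2 CPM centred on its mean. For S1pr3 these were Tubb4a (0.10), Slc1a3 (0.13) and Cdk18 (0.13), and for Sphk1 they included Ugdh (0.17) and Alpl (0.22). For Spns2 they were Epn2 (0.03), Arl15 (0.04) and Tmem181a (0.05), for S1pr4 Trmt1l (0.04), Tbc1d10b (0.05) and Map3k8 (0.06), and for Sgpl1 Srrm1 (0.05), Elf4 (0.06) and Zbtb10 (0.06). The differences were not compared between members.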

How the data were processed

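The authors deposited a table of raw counts by Ensembl gene with a column for each library, per the file headers. Tools named by the submitters' processing notes are STAR 2.7.10b and featureCounts 2.0.3, with the build mm10. How reads were aligned, which annotation was used and whether strand was counted is not given in the sources used here. Of 51948 genes shared with GENCODE M21 on GRCm38, 2.80% had the same start, and 0 of the 9 members, so coordinates of the count table are of an unresolved build. A deposited summary of alignments gave 72.4% to 77.8% assigned to genes. Another 2 columns of values, with names that fit no labelled sample, were left out.

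Symbols were matched through GENCODE identifiers (51948 of 56941). Counts were tested with edgeR 4.0.16 in R 4.3.3: filterByExpr (18562 of 33412 genes with any count), TMM scaling, and the robust quasi-likelihood F test of EC-KO over FL with the 6 libraries, two-sided, without covariates, at a Benjamini-Hochberg adjusted p of 0.05. The standard error is the absolute log2 fold change over the square root of F. CPM use TMM-scaled library sizes, and RPKM divide them by the deposited gene length, which is the summed length of exons in bases. A prior count of 0.5 was used for log2 levels. The common biological coefficient of variation was 25.5%. The fit was tested on simulated data that held no difference in cell mixture, so that test does not bear on such a difference here.

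The members and lists were chosen with earlier results of these data known. Named were all 9 members. From each wider list, the most abundant gene per length over both groups together and up to 3 called genes per direction by smallest p were named. Further genes, namely Plpp3, S1pr5, Mfsd2b and Apom, were chosen after their values were seen. The alternatives were other scalings, filters and tools (DESeq2 1.42.0, limma-voom 3.58.1), a fit that was not robust, a replicate block and left-out libraries. A gene with a profile near that of Sphk1 is not reported here.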

Additional observations from a re-analysis of the deposited data

How the results depend on the processing

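Directions of the 5 called members were the same under all 16 alternatives. S1pr2, not called, had a positive sign with upper-quartile scaling (0.019) and library size alone (0.028) and ranged from -0.24 to 0.10 over left-out libraries. With no filter on low counts 3 members were called, of which 1 was higher. Leaving out 1 library each gave 2 to 5 members called (1 to 3 higher, 0 to 2 lower), 2547 to 6740 genes called in all (1169 to 3009 higher, 1314 to 3731 lower), 7 to 30 calls over the 4 wider lists, 0 to 5 among the other S1P genes, 2 to 6 in sphingosine release, 0 to 6 in ceramide synthesis and 3 to 13 in receptor coupling. Without both FL 1 and EC-KO 2, the libraries known to lie nearest the other group in endothelial markers, 6 members and 7554 genes were called (4074 lower), with 31 calls over the wider lists, 7 in ceramide synthesis and 14 in receptor coupling. Upper-quartile scaling and library size alone gave a median over all genes of 0.11 and 0.12.

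With the replicate number as a block 3 members were called, 1 of them lower, and S1pr4 (adjusted p = 0.0511), Sgpl1 (0.0761) and Gna13 (0.0513) were not called. Same-numbered libraries deviated together with correlations of 0.04, 0.12 and -0.14 across genes, so the numbers were not taken as pairs. With 3 libraries a group, a missed call does not show that a gene was the same in both groups.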
